A study of Mus musculus with 9 samples.

Results

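The genes described here are 10 genes of arginine use, polyamine metabolism and alternative activation, out of 53801 genes counted in each library: *Slc7a2*, *Ass1*, *Arg1*, *Arg2*, *Nos2*, *Odc1*, *Sat1*, *Il4ra*, *Retnla* and *Il10*. They were chosen by name, and all 10 were found by their Ensembl identifiers. Cells of the monocyte/macrophage gate (CD11c-Ly6G-CD11b+CD45high) were sorted from male C57BL/6J mice aged 9 weeks, and their RNA was sequenced in 3 groups of 3 libraries. Stroke brain came from the ipsilesional hemisphere and stroke blood from the circulation, both 5 days after the left common carotid artery and the distal middle cerebral artery had been closed permanently (dMCAO), and sham blood came from sham-operated mice, for which no day is named. A brain library was a pool of 5 brains and a blood library came from 1 mouse, so the spread among brain libraries is that of pools. The gate does not separate blood-derived macrophages from microglia that have raised CD45. Brain tissue was dissociated with enzymes and blood was not, so tissue and dissociation cannot be told apart.

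Arginine enters macrophages through cationic amino acid transporters. Nitric oxide synthase turns it into nitric oxide and citrulline, while arginases split it into urea and ornithine, from which the polyamines putrescine, spermidine and spermine are made. In mouse macrophages, interleukin-4 and interleukin-13 signal through IL-4Rα and STAT6 to induce the program called alternative activation, of which *Arg1* and *Retnla* are textbook markers, whereas interferon-γ with microbial products induces *Nos2*.

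Libraries held between 18475118 and 22623578 counts, and levels are given as CPM, counts scaled to 1000000 counts in the library, at which 3 counts correspond to between 0.133 and 0.162 CPM. The summed level of 9 microglial markers was 1526, 2224 and 4249 CPM in the brain libraries against 135 to 205 CPM in blood, with all 9 higher in brain, and *Sall1* and *Olfml3* had at most 3 counts in every blood library. Dendritic cell markers summed to between 834 and 1087 CPM in brain and between 99.9 and 348 CPM in blood, with 7 of 8 higher in brain than in stroke blood. The 10 monocyte/macrophage markers were detected in every group, with sums of 47443 to 53645 CPM in brain and 89865 to 125799 CPM in blood, sums made up mostly of *Lyz2*, which was at 38689 to 42806 CPM in brain and 79523 to 115643 CPM in blood; 2 of the 10 were called lower in brain and none higher. Sham blood 3 held the highest sham level of 7 of 10 neutrophil markers, with *Mmp8*, *S100a8*, *Retnlg* and *S100a9* carrying most of a sum of 3296 CPM against 1016 and 1232 CPM in the other sham libraries. *S100a8* alone was at 956 CPM in it against 41.2 and 77.5 CPM, whereas the granule genes *Camp*, *Ltf* and *Ngp* were highest in sham blood 1, and *Ly6g* stayed at or below 0.756 CPM in all libraries. In brain, 5 of the 8 neutrophil markers tested were higher and 1 lower than in stroke blood, with sums of 1113 to 1756 CPM and 644 to 1111 CPM. Sham blood 1 stood apart by few erythroid transcripts, 1221 CPM against 34113 and 30389 CPM, and few platelet transcripts, whose sum was 449 and 650 CPM in the other sham libraries. The part of other cell types in the differences given here was not tested, and in sorted bulk samples fewer cells of a type and less RNA per cell cannot be told apart.

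In brain against stroke blood, 6 of the 9 genes that could be tested were called higher and none lower: *Slc7a2*, *Ass1*, *Arg1*, *Arg2*, *Il4ra* and *Il10*. A gene was called at more than a 2-fold difference (a log2 fold change beyond 1) with an adjusted p below 0.05 in edgeR's quasi-likelihood test, adjusted over all genes tested. Of all 13189 genes tested, 21.0% were called and 13.1% were called higher. The median log2 fold change was 1.78 over the 9 genes and 0.06 over all genes. *Slc7a2*, *Arg1* and *Il10* passed the filter on low counts only through the brain libraries. They could therefore not have been called lower, and they enter both the count and the median. Of the 10 genes, 8 had every brain library above every stroke blood library, all but *Nos2* and *Retnla*. Among all genes tested, brain was above stroke blood without overlap in 31.9%, and the groups did not overlap in either direction in 49.2%.

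**Figure D1:**
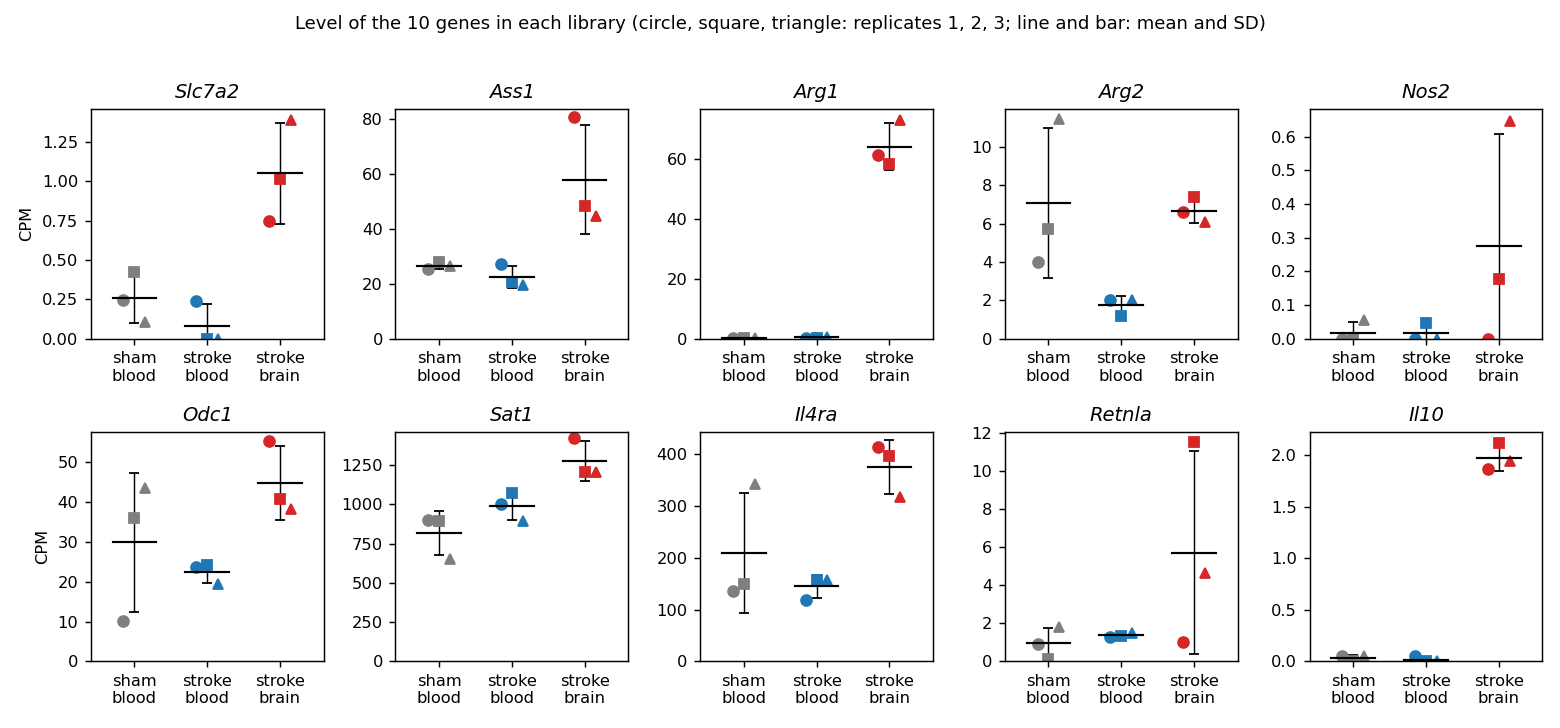
Level of each gene in the 9 libraries, in CPM on a linear axis that starts at 0, with 1 panel per gene and its own scale. Symbols mark replicates 1, 2 and 3, and the line and bar give the mean and SD of 3 libraries. *Arg1* and *Il10* were near 0 in all blood libraries, *Arg2* was lowest in stroke blood, and *Retnla* ranged from 1.01 to 11.5 CPM in brain.

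*Arg1* (ENSMUSG00000019987, chr10:24915221-24927484 of GRCm38, minus strand) encodes the cytosolic arginase. With all libraries in, it had the largest fitted log2 fold change of the 10 genes for brain against stroke blood. Without stroke blood 1, the fitted values of *Il10* (8.28) and *Slc7a2* (7.38) exceeded the 6.998 of *Arg1*. Both genes had 0 counts in stroke blood 2 and stroke blood 3, so these values are not measured folds. *Arg1* had 1147, 1315 and 1578 counts in the brain libraries, 5, 4 and 13 counts in stroke blood and 7, 1 and 2 counts in sham blood. In CPM the brain libraries were at 61.1, 58.1 and 73.0, and no blood library exceeded 0.702. The brain libraries stood far above both blood groups and close to each other, with a mean of 64.1 ± 7.87 CPM (SD, n = 3). The log2 fold change of brain was 7.27 ± 0.41 (SE) against stroke blood, with an adjusted p of 1.05e-05 in edgeR's quasi-likelihood test, and 8.42 ± 0.45 against sham blood, with an adjusted p of 0.000141. Both comparisons use the same brain libraries. The counts in blood were too low for the filter of the blood comparison. Pooled over libraries, stroke blood held 22 counts and sham blood 10, a ratio of levels of 2.18 with a 95% counting interval from 0.991 to 5.16.

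*Arg2* (ENSMUSG00000021125, chr12:79130777-79156301, plus strand) encodes the mitochondrial arginase and showed another pattern. It was at 3.99, 5.73 and 11.5 CPM in sham blood, at 2.03, 1.21 and 2.00 CPM in stroke blood and at 6.61, 7.38 and 6.06 CPM in brain. Stroke blood was the lowest group without overlap with either of the others, and the brain libraries lay within the range of sham blood. Brain exceeded stroke blood by a log2 fold change of 1.78 ± 0.38, with an adjusted p of 0.00718 in edgeR's test, whereas brain and sham blood differed by -0.20 ± 0.41, with an adjusted p of 0.760. Between the blood groups the log2 fold change was -1.97 ± 0.46, the largest of the 6 genes tested there. It was not called by edgeR, with an unadjusted p of 0.00189 and an adjusted p of 0.285, while DESeq2 gave the same size, -1.99, with an adjusted p of 0.0036. Without sham blood 3, the library with the highest *Arg2* and *S100a8*, the difference between blood groups was -1.44 and that between brain and sham blood became 0.34. The exons of *Arg2* share 285 bases, 20.0% of their length, with *Vti1b* on the other strand, and since the strand setting of the counting was not given in the sources used here, some of its reads may belong to that gene.

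The 2 arginases exchanged their order between blood and brain. Per kilobase of exon, the ratio of *Arg1* to *Arg2* was between 0.00525 and 0.0547 in the sham blood libraries, between 0.0763 and 0.225 in stroke blood and between 5.05 and 7.72 in brain. *Arg2* was thus the higher of the pair in all 6 blood libraries and *Arg1* in all 3 brain libraries.

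*Nos2* (ENSMUSG00000020826, chr11:78920787-78960254, plus strand) encodes the inducible nitric oxide synthase, which competes with the arginases for arginine. It was close to the limit of detection, with 0, 0 and 1 counts in sham blood, 0, 1 and 0 in stroke blood and 0, 4 and 14 in brain. One brain library thus held most of its reads and another held none, and the gene was not tested in any comparison. The ratio of pooled levels between brain and stroke blood was 17.4, with a 95% counting interval from 2.74 to 724, an interval that covers counting error only and not the spread between libraries.

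*Slc7a2* (ENSMUSG00000031596, chr8:40862396-40922308, plus strand) encodes the cationic amino acid transporter CAT2, which can take up arginine, and a noncoding gene on the other strand covers 7.0% of its exons. It was scarce throughout, with 5, 9 and 2 counts in sham blood, 5, 0 and 0 in stroke blood and 14, 23 and 30 in brain. The brain libraries were above all blood libraries, at 0.746 to 1.39 CPM. The ratio of pooled levels between brain and stroke blood was 12.9, with a counting interval from 5.28 to 41.1, and the adjusted p in edgeR's test was 0.0335. The call was lost without stroke blood 2 (adjusted p = 0.112), stroke blood 3 (0.124), brain 2 (0.0777) or brain 3 (0.102). Against sham blood, which shares the brain libraries, the log2 fold change was 1.88 ± 0.61 and the adjusted p 0.0679. The blood groups were not tested; the ratio of their pooled levels, stroke to sham, was 0.310 with a counting interval from 0.0888 to 0.885, on 5 and 16 counts.

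*Ass1* (ENSMUSG00000076441, chr2:31470207-31520672, plus strand) encodes argininosuccinate synthase, which together with *Asl* remakes arginine from citrulline. It was at 25.5, 27.8 and 26.5 CPM in sham blood, at 27.0, 20.7 and 19.6 CPM in stroke blood and at 80.5, 48.3 and 44.8 CPM in brain. All brain libraries were above all blood libraries, and brain 1 was well above the other two. Brain exceeded stroke blood by a log2 fold change of 1.21 ± 0.26, with an adjusted p of 0.00691. Without brain 1 this was 0.91, below the 2-fold threshold, at an adjusted p of 0.00978. Against sham blood the log2 fold change was 0.996 ± 0.233 with an adjusted p of 0.0226, just under the threshold of 1. *Asl*, which carries out the next step, did not pass the test in either comparison, with log2 fold changes of -0.05 against stroke blood and 0.14 against sham blood.

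*Odc1* and *Sat1* act at opposite ends of polyamine metabolism, the first making putrescine from ornithine and the second acetylating spermidine and spermine for export or oxidation. *Odc1* (ENSMUSG00000011179, chr12:17544794-17551505, plus strand) was at 10.2, 35.9 and 43.5 CPM in sham blood, at 23.6, 24.2 and 19.4 CPM in stroke blood and at 55.4, 40.8 and 38.2 CPM in brain. Brain was above stroke blood without overlap, by a log2 fold change of 0.85 ± 0.20 with an adjusted p of 0.0128, short of the 2-fold threshold. With library size alone as the scale the value was 1.001 and past the threshold. Sham blood spread over 4-fold, with its lowest value in sham blood 1, the library with few erythroid and platelet transcripts, and it overlapped both other groups.

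*Sat1* (ENSMUSG00000025283, chrX:155213132-155216449, minus strand) was at 898, 894 and 655 CPM in sham blood, at 1003, 1071 and 893 CPM in stroke blood and at 1425, 1205 and 1204 CPM in brain. The order sham blood, stroke blood, brain held for the means, and brain did not overlap with either blood group, but no difference passed the test. The log2 fold changes were 0.22 ± 0.15 (adjusted p = 0.292) for brain against stroke blood, 0.53 ± 0.16 (0.0564) for brain against sham blood and 0.31 ± 0.17 (0.478) between the blood groups in edgeR's test. Per kilobase, *Sat1* was between 31.5 and 38.7 times the level of *Odc1* in brain and between 52.2 and 56.4 times in stroke blood, while in sham blood the ratio ran from 18.5 to 108.

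*Il4ra* (ENSMUSG00000030748, chr7:125552120-125579474, plus strand) encodes the receptor chain that IL-4 and IL-13 share. It was at 135, 149 and 342 CPM in sham blood, at 119, 157 and 158 CPM in stroke blood and at 413, 396 and 317 CPM in brain. Brain was above all stroke blood libraries, and only sham blood 3 reached the brain range. Brain exceeded stroke blood by a log2 fold change of 1.22 ± 0.18, with an adjusted p of 0.00114 in edgeR's test. Against sham blood the value was 0.72 ± 0.35 with an adjusted p of 0.188, and without sham blood 3 it was 1.28 with an adjusted p of 0.00958. Between the blood groups it was -0.49 ± 0.33, and 0.06 without sham blood 3. Thus for *Il4ra*, as for *Arg2*, the values against sham blood moved with the library that also held the most *S100a8*. Other neutrophil markers (*Camp*, *Ltf* and *Ngp*) were highest among sham libraries in sham blood 1 instead, and the part of neutrophils was not tested. An antisense gene on the other strand covers 9.5% of its exons.

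*Il10* (ENSMUSG00000016529, chr1:131019845-131024974, plus strand) encodes an anti-inflammatory cytokine. It had 35, 48 and 42 counts in the brain libraries, 1, 0 and 0 in stroke blood and 1, 0 and 1 in sham blood. The brain libraries were alike, at 1.98 ± 0.131 CPM (SD, n = 3), and blood was at or under 1 count per library. The ratio of pooled levels was 121 against stroke blood, with a counting interval from 21.3 to 4804, and 59.8 against sham blood, with an interval from 16.2 to 499.6. The adjusted p in edgeR's test was 0.000944 against stroke blood and 0.00316 against sham blood.

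*Retnla* (ENSMUSG00000061100, chr16:48842552-48844461, plus strand) encodes the secreted protein RELMα. It was at 0.924, 0.141 and 1.79 CPM in sham blood, at 1.30, 1.35 and 1.51 CPM in stroke blood and at 1.01, 11.5 and 4.63 CPM in brain. Brain 2 and brain 3 were above all blood libraries and brain 1 was within the blood range, so the groups overlapped. Brain 1 also had the lowest *Mrc1* of the brain libraries, 32.4 CPM against 67.5 and 91.0 CPM, the lowest *Cd163*, and the lowest sum of microglial markers. Each of these was highest in brain 3, whereas *Retnla* was highest in brain 2. The log2 fold change of brain was 1.89 ± 0.73 against stroke blood, not called with an adjusted p of 0.0777 in edgeR's test and called with 0.0266 by DESeq2, which called 19.2% of the 16649 genes it tested. Without brain 1 it was 2.40 with an adjusted p of 0.00589, and without brain 2 it was 0.88 with an adjusted p of 0.394. Against sham blood it was 2.47 ± 1.01, with adjusted p-values of 0.126 in edgeR's test and 0.029 in DESeq2, and without brain 2 it was 1.45. DESeq2 called 14.4% of 16241 genes there. The count of 6 called genes for brain against stroke blood was also 6 without brain 1, when *Ass1* fell out and *Retnla* came in.

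Promoter sequence was at hand for 5 of the 10 genes (*Odc1*, *Sat1*, *Ass1*, *Il4ra* and *Retnla*), as the 250 bases upstream of the RefSeq start in GRCm38.p6. Those of *Ass1* and *Il4ra*, which were called higher in brain together, and of *Retnla*, a marker of alternative activation that varied among brain libraries, are shown 5′ to 3′ up to the first base of the annotated gene, with capitals for any match to the motifs searched. They lie at chr2:31470020-31470206, chr7:125552021-125552119 and chr16:48842359-48842550, all on the plus strand.
Ass1: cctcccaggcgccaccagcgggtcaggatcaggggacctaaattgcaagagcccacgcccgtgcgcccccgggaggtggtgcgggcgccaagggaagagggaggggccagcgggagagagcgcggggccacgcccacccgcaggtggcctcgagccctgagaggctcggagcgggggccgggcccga
Il4ra: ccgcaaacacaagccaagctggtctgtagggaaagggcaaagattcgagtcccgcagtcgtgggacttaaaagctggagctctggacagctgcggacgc
Retnla: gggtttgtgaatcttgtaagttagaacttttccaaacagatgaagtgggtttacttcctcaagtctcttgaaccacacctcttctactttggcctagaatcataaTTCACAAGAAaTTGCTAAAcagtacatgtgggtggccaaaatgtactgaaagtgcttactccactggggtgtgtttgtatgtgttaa
The capitals in *Retnla* mark a STAT6-type palindrome (TTC and GAA with any 4 bases between), which starts 145 bases before the RefSeq start, and a C/EBP-type motif (TTGCNNAA), which starts 134 bases before it. Matches of these lengths are common. Both strands were searched for 7 motifs, and among all 32851 promoters at hand, 5.85% held the first and 9.56% the second. The others were an E-box (CACGTG), a STAT-type palindrome (TTCNNNGAA), an AP-1-type motif (TGANTCA), a CRE core (TGACG) and a κB-type motif (GGG and TTTCC with any 2 bases between). *Ass1* held the E-box, in 6.02% of promoters, 36 bases before the RefSeq start and so inside the annotated gene, and *Odc1* held the CRE core, in 17.8% of promoters. No motif searched was found in the windows of *Il4ra* and *Sat1*.

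**Figure D2:**
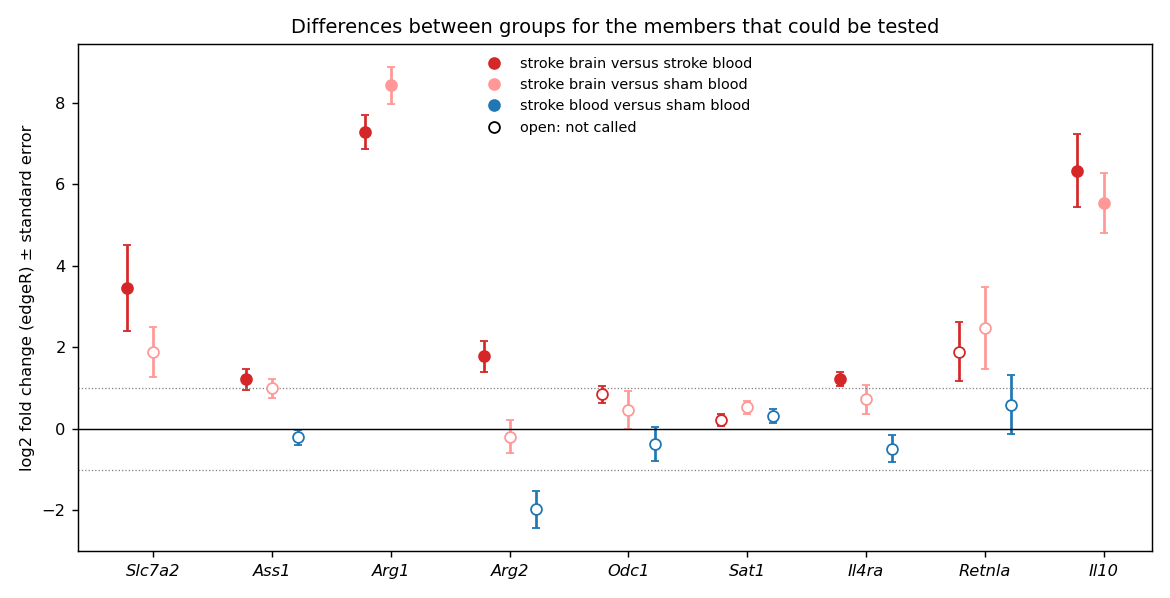
Log2 fold changes with their standard errors from edgeR's fits for the genes that could be tested, with 1 color per comparison. Filled points were called and open points were not, and dotted lines mark the 2-fold thresholds. The values of *Il10* and *Slc7a2* rest on blood libraries of 9 counts or fewer, and *Arg2* lay at -1.97 in the blood comparison and at 1.78 for brain against stroke blood.

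Scaled to length, the genes covered more than 3 orders of magnitude in brain. *Sat1* was highest at 460.8 ± 45.7 CPM per kilobase of exon (SD, n = 3), followed without overlap by *Il4ra* at 62.5 ± 8.59. *Arg1* at 28.8 ± 3.53 came next and overlapped *Ass1* at 24.0 ± 8.15. *Odc1* at 13.2 ± 2.73 overlapped *Retnla* at 9.53 ± 8.89, which in turn overlapped *Arg2* at 4.68 ± 0.465. *Il10* at 1.51 ± 0.10 was apart from its neighbors, and *Slc7a2* at 0.115 ± 0.0353 overlapped *Nos2* at 0.0623 ± 0.0759. In stroke blood the order was *Sat1*, *Il4ra*, *Ass1*, *Odc1*, *Retnla*, *Arg2* and *Arg1*, none of which overlapped the next, with *Il10*, *Slc7a2* and *Nos2* near the limit of detection. In sham blood *Sat1*, *Il4ra* and then *Ass1* led, *Ass1*, *Odc1*, *Arg2* and *Retnla* overlapped in turn, and *Arg1* stood below these and overlapped *Slc7a2*.

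**Figure D3:**
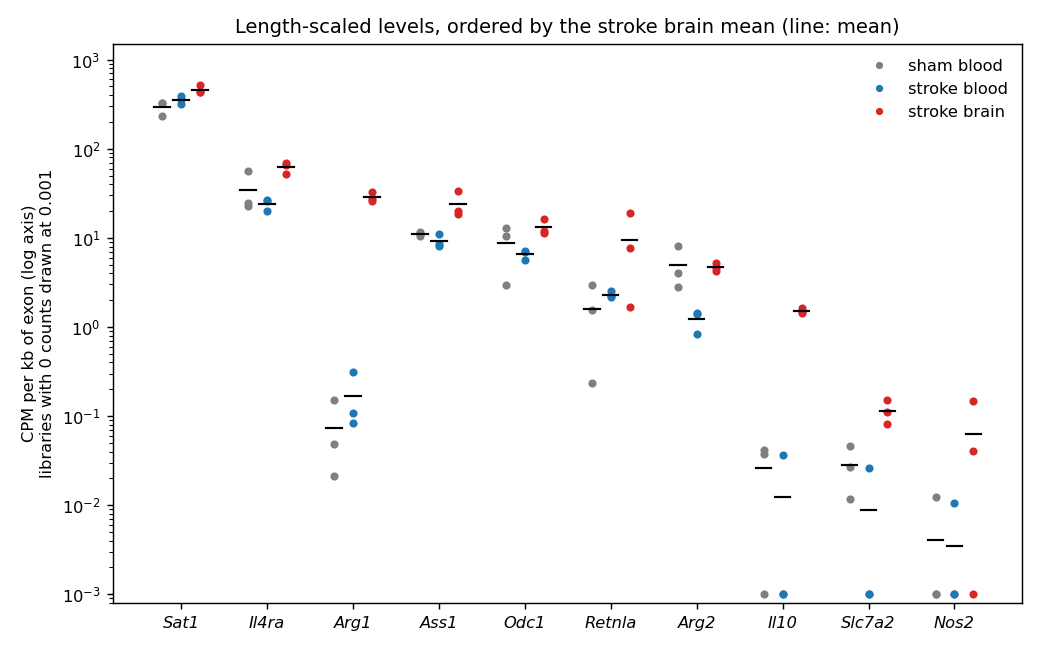
Levels per kilobase of exon in each library, on a log axis, ordered by the brain mean, with a line at each group mean. Libraries with 0 counts are drawn at 0.001. *Sat1* and *Il4ra* led in all 3 groups, and *Arg1* was at 28.8 CPM per kilobase in brain against 0.169 in stroke blood and 0.0742 in sham blood.

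Between stroke blood and sham blood none of the 6 genes that could be tested was called by edgeR, where 0.00790% of all 12664 genes were called. *Arg2* alone had an unadjusted p below 0.05, as did 12.5% of all genes tested. DESeq2 called 1 of the 10 genes, *Arg2*, and 1.17% of the 11563 genes it tested. The median log2 fold change was -0.29 over the 6 genes and -0.03 over all genes. Apart from *Arg2*, the differences lay between -0.49 (*Il4ra*) and 0.58 (*Retnla*), with standard errors between 0.17 and 0.72.

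Brain against sham blood called 2 of the 9 genes tested, *Arg1* and *Il10*, both higher, where 13.4% of all 13020 genes were called and 9.75% were called higher. Both passed the filter on low counts only through the brain libraries, so neither could have been called lower. The median log2 fold change was 1.00 over the 9 genes and 0.01 over all genes. *Il4ra* was also called without sham blood 3, and *Ass1* without brain 2 or brain 3.

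The wider arginine and polyamine pathway, a list of 34 further genes, had 6 genes called higher and 1 lower of 28 tested in brain against stroke blood, with a median log2 fold change of 0.34. That is 7 of 28 called, near the 21.0% of all genes. *Slc3a2*, the heavy chain shared by several amino acid transporters, rose from 55.2 to 68.6 CPM in stroke blood to between 344 and 380 CPM in brain, a log2 fold change of 2.36 ± 0.16. *Gatm*, which takes arginine into creatine synthesis, rose by 3.05 ± 0.24, while *Gamt*, the next enzyme of that path, fell by 1.53 on the log2 scale. *Smox*, which oxidizes spermine, rose by 1.33 ± 0.15 and *Aldh18a1*, which makes the precursor of proline and ornithine from glutamate, by 1.43 ± 0.21. *Ddah2*, a member of the family that degrades methylated arginine, had 85, 71 and 141 counts in brain and 2, 4 and 0 in stroke blood. *Sat2* was at 0 counts in all stroke blood libraries and at least 4.80-fold higher in brain, set against 3 counts per library.

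The enzymes that make spermidine and spermine were not called. *Srm*, the spermidine synthase, had a log2 fold change of 0.63 (adjusted p = 0.0359), *Sms*, the spermine synthase, 0.60 (0.146) and *Amd1*, which supplies the aminopropyl donor, -0.83 (0.038) in edgeR's test. *Slc7a1*, the other main arginine transporter, was at 0.70 (0.0548). Its means of 27.2 CPM in brain, 14.9 CPM in stroke blood and 13.8 CPM in sham blood were far above those of *Slc7a2*. Of the 34 genes, 7 of 28 tested were called against sham blood, of which *Amd1* and *Gamt* were lower and *Slc3a2*, *Gatm*, *Sat2*, *Atp13a3* and *Ddah2* higher. Of all genes tested against sham blood, 13.4% were called and 9.75% were called higher. The call of *Atp13a3* held in 2 of 6 fits with a library left out and was lost without sham blood 2, sham blood 3, brain 1 or brain 2, and that of *Sat2* was lost without sham blood 2 (adjusted p = 0.0645). Between the blood groups edgeR called none of 27, with 2 at an unadjusted p below 0.05, as had 12.5% of all genes, and DESeq2 called none.

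The list of alternative activation and of IL-4, IL-13 and IL-10 signaling held 36 genes, of which 13 were called higher and 3 lower of 34 tested in brain against stroke blood, with a median log2 fold change of 0.78. Of all genes, 21.0% were called and 13.1% were called higher. The mannose receptor *Mrc1* rose by 2.81 ± 0.40 and the scavenger receptor *Cd163* by 2.28 ± 0.46, while the lectins *Clec10a* (0.76) and *Clec7a* (-0.41) and the scavenger receptor *Msr1* (0.38) were not called. *Mrc1* and *Cd163* also mark border-associated macrophages, whose list of 6 had 3 markers higher and 1 lower in brain and summed to between 1094 and 1353 CPM in brain and between 1514 and 2743 CPM in stroke blood. That sum was mostly *F13a1*, at 923 to 1089 CPM in brain and 1399 to 2634 CPM in stroke blood, while *Lyve1* was at 0.213, 5.66 and 13.9 CPM in brain and at most 0.0540 CPM in blood. *Tgm2*, a transglutaminase, rose from 18.2 to 22.2 CPM to between 615 and 841 CPM, by 5.06 ± 0.20. *Pparg*, a lipid-sensing nuclear receptor, rose by 1.36 ± 0.24 and *Cish*, a feedback inhibitor of cytokine signaling, by 3.71 ± 0.40.

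The chemokine *Ccl22* had 761, 595 and 1156 counts in brain and 0 in each of the 6 blood libraries, so that set against 3 counts per library brain was at least 270-fold higher than stroke blood. *Ccl17* was at 1.49, 6.67 and 1.71 CPM in brain and at or below 0.162 CPM in blood. Both are also made by dendritic cells, which the CD11c-negative gate should remove. Of their 8 markers, 7 were higher in brain than in stroke blood and 4 were higher than in sham blood. *Itgax*, which encodes CD11c, was among the 7, at 78.9 to 141 CPM against at most 19.4 CPM in stroke blood. *Siglech* is on both this list and the microglial list, and the part of dendritic cells was not tested.

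Not every marker of alternative activation was higher. *Chil3*, which encodes the chitinase-like protein Ym1, fell from 6052, 5779 and 3933 CPM in stroke blood to 1504, 2455 and 2570 CPM in brain, by 1.42 on the log2 scale, and was at 6500, 10110 and 22680 CPM in sham blood. The groups did not overlap, and sham blood 3 again held the highest value. *Chil4* fell by 2.55 and *Irf4*, a transcription factor of the IL-4 response, by 1.46. The call of *Chil4* held in 3 of 6 fits with a library left out and was lost without stroke blood 1 (adjusted p = 0.134), brain 1 or brain 2. Of the signal carriers, *Stat6* at 0.35 (adjusted p = 0.16), *Il13ra1* at -0.31 (0.368) and *Il10ra* at 0.16 (0.608) did not pass edgeR's test. *Il10rb* rose by 1.11 ± 0.22, or by 0.97 without stroke blood 3, short of 2-fold. *Il2rg* was at 122 to 161 CPM in stroke blood and at 268 to 292 CPM in brain. *Jak1*, *Jak3* and *Stat3* were also above all stroke blood libraries in every brain library, while *Tyk2* overlapped. None of *Il2rg*, *Jak1*, *Jak3*, *Stat3* and *Tyk2* was called. In edgeR's test, 22 of the 34 genes had an adjusted p below 0.05, as had 30.6% of all genes, and 16 of the 22 were called. The ligand *Il4* had 3 to 33 counts in stroke blood and 7 to 79 in brain, with an adjusted p of 0.330, and *Il13* had 1 count in all 9 libraries together.

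Against sham blood, 12 genes of this list were called higher and 2 lower (*Chil3* and *Chil4*) of 34 tested, and *Chil4* was lost without sham blood 3 or brain 2. Of all genes tested in that comparison, 13.4% were called and 9.75% were called higher. Between the blood groups edgeR called none of 32, with 7 at an unadjusted p below 0.05, as had 12.5% of all genes. DESeq2 called *Irs2*, which was higher in stroke blood, and *Chil3*, which was lower, where it called 1.17% of all genes it tested.

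In the list of 16 nitric oxide genes, 1 was called higher and 1 lower of 15 tested in brain against stroke blood, with a median log2 fold change of -0.12. Of all genes 21.0% were called. *Ifng*, the gene for interferon-γ, rose by 2.61 ± 0.70, with 104, 176 and 325 counts in brain and 63, 15 and 8 in stroke blood. Its call was lost without stroke blood 2, stroke blood 3 or brain 3, with an adjusted p of up to 0.0808 in edgeR's test. Interferon-γ is chiefly a product of T and NK cells, whose 7 markers summed to between 601 and 1169 CPM in brain and between 255 and 764 CPM in stroke blood, with 3 higher in brain. *Gchfr*, a feedback regulator of the enzyme that starts cofactor synthesis for nitric oxide synthase, fell from 142 to 187 counts in stroke blood to 6, 0 and 4 counts in brain. In sham blood it had 12, 198 and 273 counts, with the fewest in sham blood 1. Erythroid transcripts were also few in that library and in brain, where all 6 markers were lower and summed to between 4.16 and 14.5 CPM against 13767 to 18408 CPM in stroke blood, and 6 of 7 platelet markers were lower; the part of these cells was not tested. *Gch1*, that enzyme, was at 0.67 (adjusted p = 0.0187), short of 2-fold. Between the blood groups edgeR called none of 15, none had an unadjusted p below 0.05, which 12.5% of all genes had, and DESeq2 called none. The same 2 genes were called against sham blood, of 14 tested, where 13.4% of all genes were called, with *Gchfr* called in 2 of 6 fits with a library left out and lost without sham blood 2, sham blood 3, brain 2 or brain 3.

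**Figure D4:**
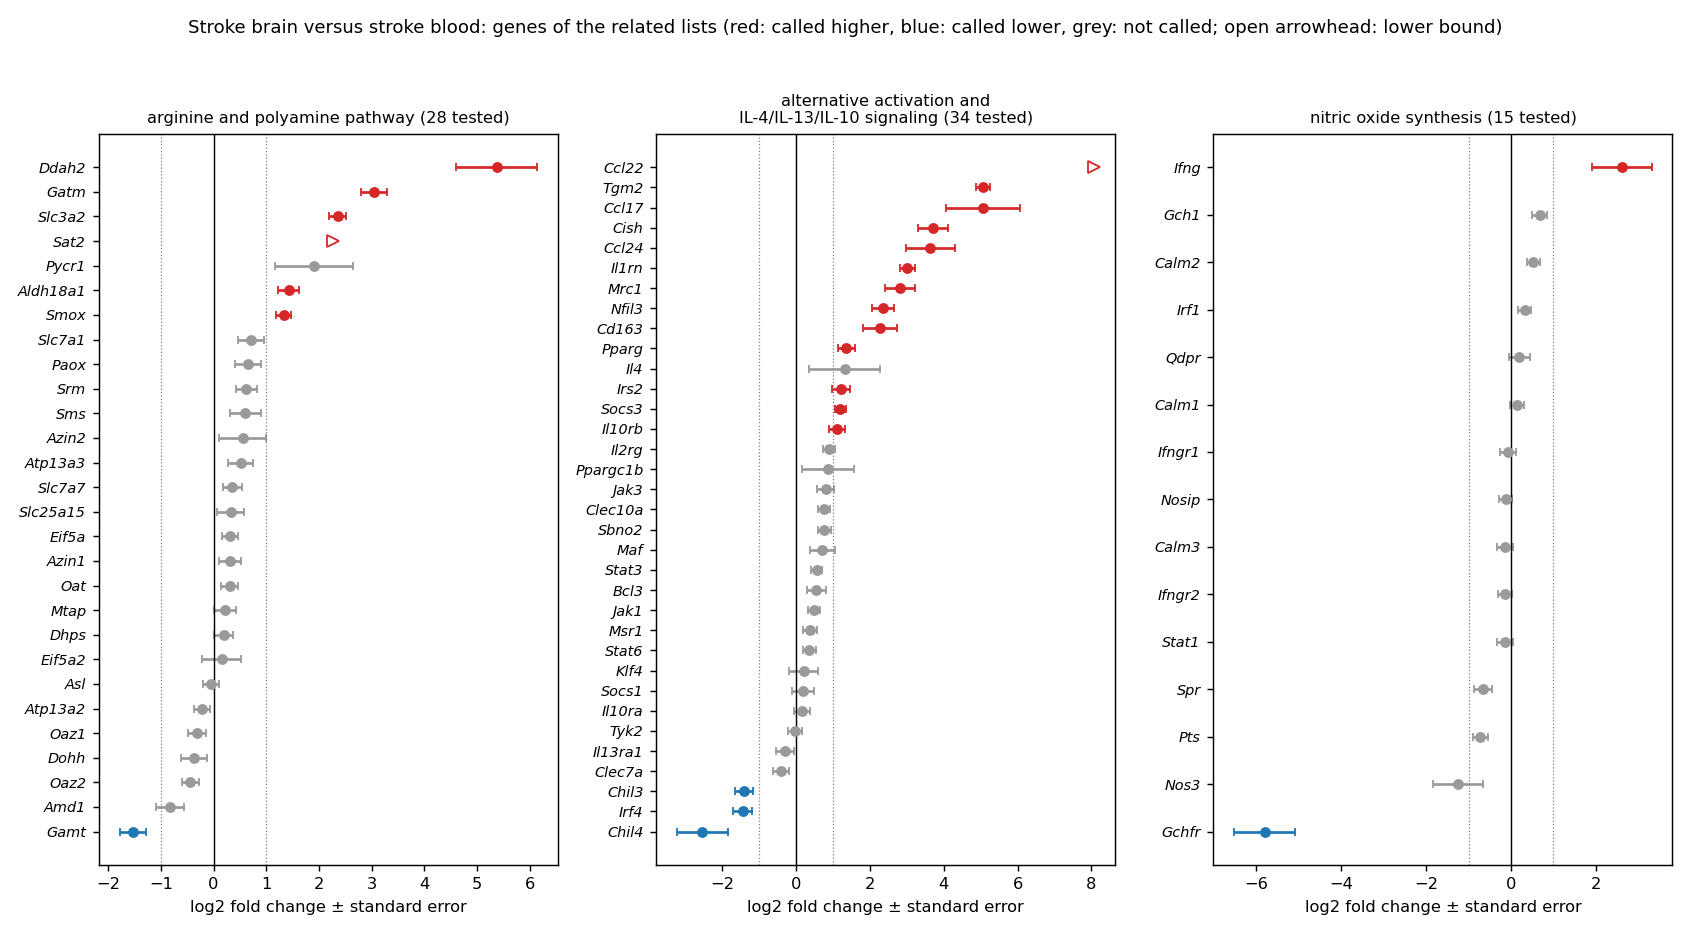
Log2 fold changes with standard errors of brain against stroke blood for the 3 related lists, 1 panel per list and 1 row per tested gene, with dotted lines at the 2-fold thresholds. Red genes were called higher, blue lower and grey not called, and open arrowheads are lower bounds for genes with no count in stroke blood. Of 28, 34 and 15 genes tested, 6, 13 and 1 were called higher and 1, 3 and 1 lower.

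For *Arg1*, *Arg2*, *Odc1* and *Il10*, the genes whose log2 levels followed the same course over the 9 libraries most closely were found among 13612 genes, by the root mean square difference of values centered on each gene's mean. Nearest to *Arg1* were *Cacnb3* (0.57 log2 units), *C1qc* (0.76), a subunit of complement C1q, and *Ptgs2* (0.78), the inducible cyclooxygenase. Nearest to *Arg2* were *Tmigd3* (0.37), *Fkbp5* (0.40), a co-chaperone of steroid receptors, and *Tarbp1* (0.44). *Fkbp5* had means of 23.4 CPM in sham blood, 5.70 CPM in stroke blood and 30.4 CPM in brain, so it too was lowest in stroke blood. Nearest to *Odc1* were *Fbxw8* (0.26), *Slc7a5* (0.28), a large neutral amino acid transporter, and *Ahcyl1* (0.29). Nearest to *Il10* were *Lad1* (0.45), *Dusp27* (0.45) and *H2-M2* (0.47), each with no count in any blood library. The points share libraries and depth, so these likenesses are descriptions of 9 libraries.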

How the data were processed

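RNA of sorted monocytes/macrophages was amplified with the SMART-Seq HT kit, made into libraries by tagmentation and sequenced as paired-end reads. Per the submitters' processing notes and the study's methods, the authors used HISAT2 for mapping to the GRCm38 genome and HTSeq for gene counts; versions, annotation release and strand setting are not given in the sources used here. The deposited values are raw counts per Ensembl gene without normalization. Without molecular identifiers, intervals and floors cover counting error only.

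Symbols and exon overlaps came from GENCODE M21, which held 53706 of the 53801 identifiers, and promoters from RefSeq (GRCm38.p6). Several genes of the related lists overlap genes on the other strand (*Cish*, *Irs2*, *Tgm2*) or the same strand (*Ifng*, *Il10rb*), and their counts are uncertain to that extent. Samples were grouped by the tissue and procedure of their labels, and replicates differed by more than sampling noise. P-values measure the spread between single mice in blood and between pools in brain. Each pair of groups was fitted on all genes in edgeR 4.0.16 (R 4.3.3) after its default filter on low counts and TMM scaling, with the quasi-likelihood test and Benjamini-Hochberg adjustment; the standard error is the fold change over the square root of F. Genes near 0 in a group passed this filter only through the other group, so they could be called in a single direction. DESeq2 1.42.0 was an alternative, as were 3 other scalings, no filter, all 9 libraries in 1 fit, the replicate number as a block, no fold threshold, an adjusted p below 0.01 and each library left out. The test was checked on simulated counts in which well-counted genes were changed 4-fold or 8-fold. Of 100 genes each, it called 84 to 93 at 4-fold and 96 to 99 at 8-fold over the comparisons. That check does not cover genes with few counts or differences near 2-fold. Figures were made with Python 3.11.15 and matplotlib 3.10.9.

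The members and lists were chosen with earlier results of these data known. Named genes were the 10 members, the genes of the related lists, the cell type markers that stood apart and, for *Arg1*, *Arg2*, *Odc1* and *Il10*, the 3 genes of nearest course.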

Additional observations from a re-analysis of the deposited data

How the results depend on the processing

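Across the other scalings, tests and filters, the values of the 9 genes that could be tested, all but *Nos2*, kept their direction and their side of the threshold in 160 cases, passed the threshold in 7 and lost it in 1. With a library left out they did so in 132 cases, passed it in 4, lost it in 5 and changed sign in 3: without sham blood 3, *Odc1* (0.003) and *Il4ra* (0.061) between the blood groups and *Arg2* for brain against sham blood (0.341), where the lowest values with a library left out were -0.784, -0.722 and -0.482. Leaving out a library gave 5 to 6 called genes of the 10 for brain against stroke blood, 0 between the blood groups and 2 to 3 for brain against sham blood. Between the blood groups, 1 of the 10 genes was called without the filter on low counts and 1 by DESeq2, and of the alternative activation list 1 and 2. For nitric oxide genes the 2 calls of brain against stroke blood became 6 without a fold threshold and 1 at an adjusted p below 0.01, and those against sham blood 6 and 1. Against sham blood, the 7 arginine and polyamine calls became 11 without a fold threshold and the 14 alternative activation calls 6 at an adjusted p below 0.01. Without a fold threshold, edgeR called 30.6% of all genes for brain against stroke blood and 19.8% against sham blood. Leaving out a library gave 1 to 2 nitric oxide calls for brain against either blood group, 5 to 7 arginine and polyamine calls and 10 to 13 alternative activation calls against sham blood. The cause of these shifts was not tested.

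No source used here says that libraries of the same number share animals, and their deviations from the group means correlated between -0.0971 and 0.0934 over 7913 genes, so the numbers were not taken as pairs. With the replicate number as a block, *Slc7a2* had an adjusted p of 0.0543 for brain against stroke blood and the nitric oxide calls against sham blood became 1. The scale moved the median log2 fold change of all genes for brain against stroke blood from 0.06 to 0.22 with library size only and to -0.09 with upper quartiles, and the share of calls that were higher from 62.6% to 72.2% and 52.7%. With at most 1 count of *Nos2* and *Il10* in a blood library, a difference in these genes between the blood groups was not detectable at this depth.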

Other observations

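In the related lists, *Ddah1* and *Slc7a3* were each carried mostly by a single library and could not be tested. *Ddah1*, which degrades methylated arginine, had 94, 0 and 9 counts in the brain libraries and none in blood. *Slc7a3*, a cationic amino acid transporter, had 14 counts in stroke blood 1 and 1 count in the other 8 libraries together. *Il4*, which was tested for brain against stroke blood, was uneven within each group. It had 26, 63 and 54 counts in sham blood, 6, 33 and 3 in stroke blood and 7, 33 and 79 in brain.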
